A study of Mus musculus with 24 samples.

Results

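Fibronectin (Fn1), osteopontin (Spp1) and 8 matricellular proteins of pancreatic stellate cells (PSC) are described: tenascin C (Tnc), periostin (Postn), thrombospondins 1 and 2 (Thbs1, Thbs2), Sparc, Sparcl1, Smoc1 and spondin 2 (Spon2). These 10 genes were taken by name from the 53801 genes listed. Fn1 and Spp1 were chosen by their FPKM values in co-culture against control, where they were seen to be higher, so their co-culture values are given as a description without a test. The other 8 were added as members of the same class of proteins, with results of these data already known.

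PSC from pooled pancreata of young adult wild-type C57BL/6J mice were grown on a membrane with 1 µm pores and kept alone or with KPC cells, a tumor line from a genetically engineered mouse that carries p48-Cre. In the standard (distant) model the KPC cells grew on the floor of the well below. In the inverse (close) model they grew on the lower face of the same membrane, opposite the PSC. Each model had co-cultured PSC and PSC cultured alone as controls, harvested after 24 h or 72 h, which gave 8 groups of 3 libraries and 24 libraries in all. The genotype of all PSC was wild type, they were used in early passage, and the KPC cells were a single line. Libraries were made from 450 ng RNA in the standard model and 120 ng in the inverse model, and inverse PSC had been near KPC cells from seeding on. Standard PSC were seeded in another medium and changed to the final medium when the time count began, while inverse PSC were seeded in the final medium. RNA input, medium, duration and distance therefore cannot be told apart between models. The study's methods call the libraries of a group biological replicates. Neither they nor the labels say whether these came from separate isolations, so p-values measure the spread between these libraries, which may be technical.

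Matricellular proteins are secreted into the extracellular matrix, where they change how cells attach, migrate and respond to growth factors more than they carry load. Fibronectin is a fibril-forming glycoprotein that cells assemble through integrins, and osteopontin is a secreted phosphoprotein that binds integrins and CD44. PSC are the fibroblast-like cells of the pancreas that deposit much of the stroma of pancreatic cancer when activated.

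Libraries held between 15932737 and 24798761 fragments counted in genes, with a median of 18860269, and between 12277 and 13307 genes above 1 FPKM (fragments per kilobase of transcript, scaled to the library's total in units of 1e+06 fragments). The label of the cells was checked against 13 stellate cell and fibroblast markers, of which 12 were above 1 FPKM in every library, Acta2, Vim, Des, Pdgfrb and Col1a1 among them. Gfap, a marker of quiescent stellate cells, reached at most 0.24 FPKM. Replicate 1 of the standard model stood apart from replicates 2 and 3, and replicate 2 had the highest level of macrophage markers (summed FPKM of 14 genes: 451 to 1520, against 43.0 to 204 in the other standard libraries). For Spp1 and Sparcl1 the standard differences are also given without replicate 1, and for Spp1 without replicate 2. In bulk RNA, fewer cells of a type and less RNA per cell cannot be told apart.

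The 10 genes lie on 8 chromosomes of GRCm38 (GENCODE M21). Fn1 is at chromosome 1, 71585520 to 71653200, minus strand, and Spp1 at chromosome 5, 104435118 to 104441050, plus strand. Sparcl1 (5, 104079111 to 104113733, minus) and Spon2 (5, 33198184 to 33218455, minus) are on the same chromosome as Spp1. Tnc is at 4, 63959785 to 64047015 (minus), Postn at 3, 54361109 to 54391037 (plus), Thbs1 at 2, 118111876 to 118127133 (plus), Thbs2 at 17, 14665500 to 14694235 (minus), Sparc at 11, 55394500 to 55423183 (minus) and Smoc1 at 12, 81026808 to 81186414 (plus). Fn1, Spp1, Tnc and Thbs1 each share exonic bases with another annotated gene (292, 309, 176 and 208 bases), and counting without strand cannot separate reads there.

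Promoter sequence from RefSeq (GRCm38.p6) was found for 5 of the 10 members: Spp1, Tnc, Postn, Thbs2 and Sparc. The 250 bases before the transcription start are shown for Spp1 and Tnc, since these were higher in the same libraries (inverse co-culture at 72 h). Each had another listed start as well, and the window of the start farther upstream is shown. They are read 5′ to 3′ along each gene's own strand, and capitals mark motif matches found on either strand. The TATA box was searched as TATAAA. An AP-1 site was searched with the letters TGANTCA, which read the same on both strands. The core of a RUNX site was searched with the letters TGTGGT. The Spp1 window is chr5:104434861-104435110, plus strand, and the Tnc window is chr4:64047016-64047265, minus strand.
Spp1: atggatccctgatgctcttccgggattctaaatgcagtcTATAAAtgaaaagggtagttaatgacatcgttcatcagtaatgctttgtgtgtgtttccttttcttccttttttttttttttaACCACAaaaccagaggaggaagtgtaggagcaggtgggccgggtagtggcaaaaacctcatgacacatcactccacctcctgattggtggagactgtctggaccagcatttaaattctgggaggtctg
Tnc: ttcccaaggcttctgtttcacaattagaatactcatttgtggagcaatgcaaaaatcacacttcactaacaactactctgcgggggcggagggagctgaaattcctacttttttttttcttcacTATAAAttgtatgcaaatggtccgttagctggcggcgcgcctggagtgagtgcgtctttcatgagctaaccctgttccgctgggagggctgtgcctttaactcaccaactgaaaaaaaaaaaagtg
Spp1 held TATAAA beginning 211 bases before the start and the reverse complement of TGTGGT beginning 128 bases before it. Tnc held TATAAA beginning 126 bases before the start. No match overlapped another, and neither window held the AP-1 letters. The same TATAAA of Tnc began 205 bases before its other start, and the window of the other Spp1 start held no match. In Postn, which is not shown, TATAAA began 26 bases before a start. Of 32851 mouse promoter windows of the same length, 12.4% held the TATA box letters, 6.7% the AP-1 letters and 14% the RUNX letters, so the matches describe these windows only.

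The members spanned a wide range of expression. Over all 24 libraries the mean was 7523 FPKM for Sparc (rank 4 of all genes listed), 4836 for Fn1 (rank 7), 2366 for Thbs1 (rank 15), 935 for Postn (rank 56), 476 for Spp1 (rank 168), 232 for Thbs2 (rank 398), 116 for Spon2 (rank 908), 97.7 for Sparcl1 (rank 1125), 52.5 for Tnc (rank 2217) and 3.22 for Smoc1 (rank 10578). Together they held between 1.91% and 3.78% of the summed FPKM of a library. Precision followed these levels, from 46 to 1062 fragments per library for Smoc1 to between 181665 and 771089 for Fn1. Sparc was the highest member in 7 of the 8 groups, and Fn1 ranked above it in inverse co-culture at 72 h (9353 ± 656 against 8305 ± 268 FPKM, SD, n = 3). This order rests on the gene lengths that the values were divided by, which for 94.2% of genes above 0 were the mean length of the annotated transcripts. Per kilobase of the longest transcript the group means were 4595 for Fn1 and 4633 for Sparc, which differ by less than their SD. Differences of a gene between groups do not depend on its length.

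**Figure D1:**
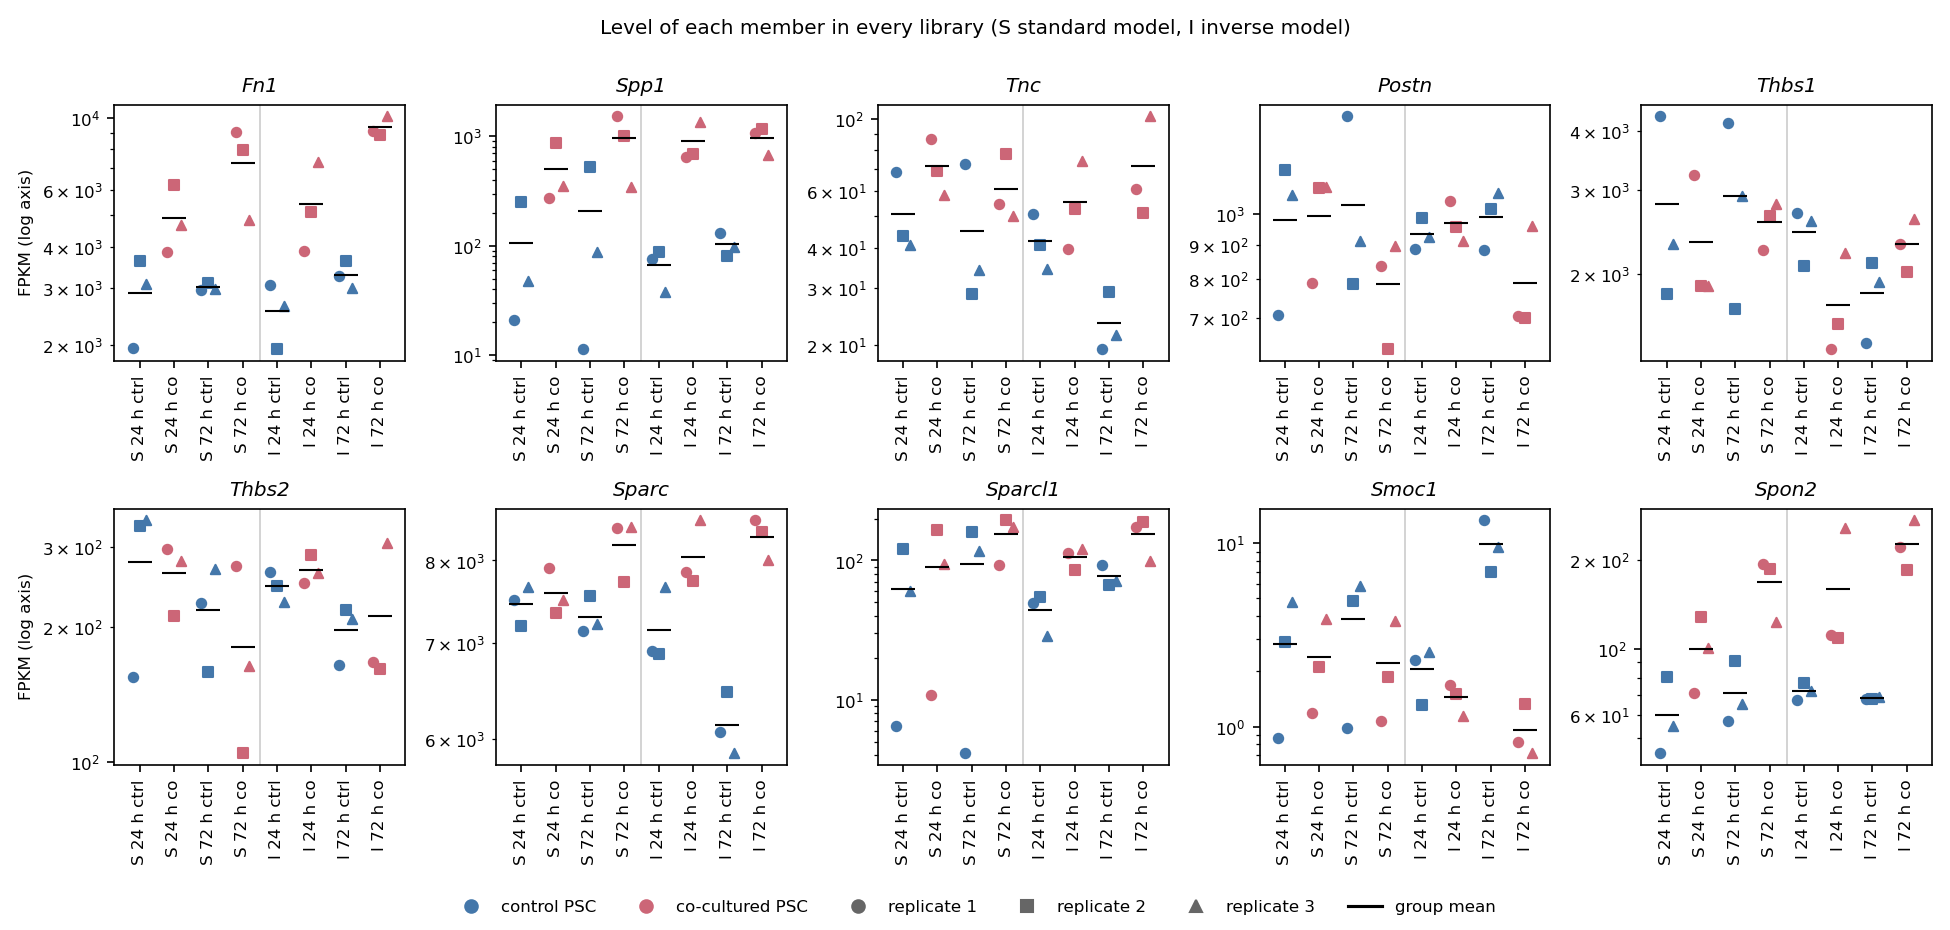
Level of the 10 members in FPKM (log axis, with a range of its own in each panel) in each of the 24 libraries, by model (S standard, I inverse), time and condition; symbols are replicates and black lines group means. Fn1 and Spp1 lie higher in co-culture than in the matching control, apart from Spp1 in the standard model at 72 h, where the groups overlap, and Smoc1 is highest in the inverse controls at 72 h.

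Fn1 encodes fibronectin, a main glycoprotein of the provisional matrix of wounds. At 24 h in the standard model it was at 3854, 6188 and 4671 FPKM in co-cultured replicates 1 to 3 and at 1955, 3633 and 3075 FPKM in control replicates 1 to 3. At 72 h co-cultured PSC had 9053, 7932 and 4849 FPKM and control PSC 2947, 3099 and 2966 FPKM. All co-cultured libraries were above all controls at each time, and the ratio of the means was 1.70 at 24 h and 2.42 at 72 h. Inverse co-culture was sampled likewise, and at 24 h Fn1 was at 3901, 5114 and 7278 FPKM in co-culture and 3054, 1935 and 2638 FPKM in control PSC. At 72 h it was at 9086, 8873 and 10101 FPKM in co-culture and 3248, 3618 and 2992 FPKM in control PSC. Again no library of one group reached the other, with ratios of 2.14 and 2.85. On the log2(FPKM + 0.5) scale, on which all differences below are given, co-culture exceeded control by 0.78 (SE 0.34) and 1.23 (SE 0.32) in the standard model and by 1.07 (SE 0.24) and 1.51 (SE 0.17) in the inverse model, at 24 h and 72 h respectively. Control PSC alone held between 1935 and 3633 FPKM, so the 8 groups fell into a low set of controls and a higher set of co-cultures, with the co-cultures at 24 h overlapping those at 72 h in the standard model.

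Spp1 encodes osteopontin. At 24 h in the standard model it was at 276, 869 and 349 FPKM in co-cultured replicates 1 to 3 and at 20.8, 250 and 48.0 FPKM in the controls. At 72 h co-cultured PSC had 1526, 997 and 348 FPKM and control PSC 11.3, 523 and 88 FPKM. The groups were separate at 24 h and overlapped at 72 h, where control replicate 2 was above co-culture replicate 3, although within each replicate number co-culture was higher. Inverse PSC held Spp1 at 654, 686 and 1357 FPKM in co-culture and 75.3, 88.4 and 38.1 FPKM in control PSC at 24 h. At 72 h the values were 1078, 1156 and 677 FPKM in co-culture and 132, 81.5 and 97.2 FPKM in control PSC. The lowest co-cultured library of the inverse model was thus above the highest inverse control at both times, and the ratio of the means was 13.4 at 24 h and 9.36 at 72 h, against 4.68 and 4.62 in the standard model. The log2 differences were 2.78 (SE 0.93) and 3.31 (SE 1.34) in the standard model and 3.73 (SE 0.35) and 3.21 (SE 0.24) in the inverse model.

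The wide error of Spp1 in the standard model came with differences between replicate numbers. Paired by number, the log2 difference was 3.69, 1.79 and 2.85 at 24 h and 7.01, 0.93 and 1.98 at 72 h for replicates 1, 2 and 3. Without replicate 1 of both groups the difference was 2.32 at 24 h and 1.45 at 72 h, and without replicate 2 it was 3.27 and 4.49. The 2 standard controls with the highest Spp1 (replicate 2, 250 and 523 FPKM) also had the highest summed macrophage markers among all controls, 607 and 1520 FPKM, and macrophages express Spp1. For inverse PSC the summed macrophage markers overlapped at 24 h, with 27.8 to 96.6 FPKM in co-culture and 81.9 to 91.6 FPKM in control PSC, and none of the 8 tested was called. They were lower in co-culture at 72 h, with 62.2 to 91.4 FPKM against 139 to 277 FPKM. At 72 h, 6 of the 9 macrophage markers tested were called lower in inverse co-culture, C1qa, C1qb, Csf1r and Lyz2 among them, and none higher. Of all 13066 genes tested there, 9.57% were called lower and 3.27% higher. Of the 14 markers, 7 to 8 were above 1 FPKM in these co-cultures and 9 to 11 in the controls. Some of the 9 thus passed the filter on low values only with the control libraries, where they were higher. Cd163 was at or near 0 in every group. The part of macrophages in the Spp1 values of the standard model was not tested.

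**Figure D2:**
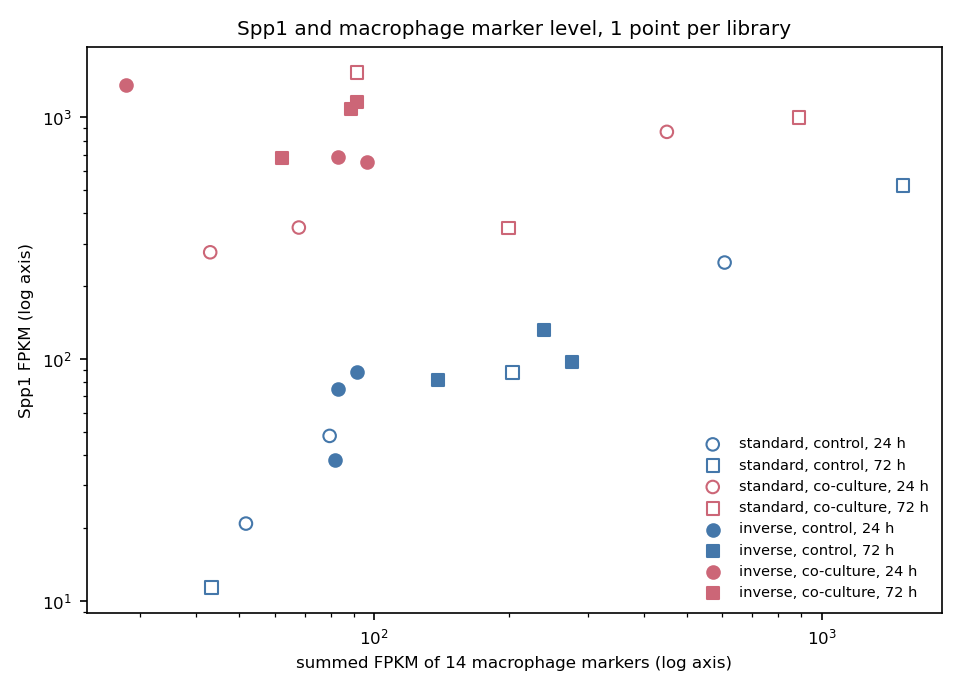
Spp1 level against the summed level of 14 macrophage markers, both in FPKM on log axes, with 1 point per library; color gives the condition, filled symbols the inverse model and shape the time. The controls of standard replicate 2 had the highest marker sums (607 and 1520 FPKM) and the most Spp1 among controls (250 and 523 FPKM). Among inverse controls the order of Spp1 was that of the marker sum at 24 h. At 72 h replicate 1 had the most Spp1 (132 FPKM) and replicate 3 the highest sum (277 FPKM). The inverse co-cultures lay at 654 to 1357 FPKM with marker sums below 97. The part of macrophages was not tested.

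Epithelial markers, as RNA of KPC cells would bring them, were counted in the same libraries. Their summed FPKM over 12 genes was 1.92 to 43.5 in the inverse co-cultures of 24 h and 1.5 to 8.17 in those of 72 h, against 0 to 0.86 in inverse controls and 0.50 to 2.41 in all standard libraries. All inverse co-cultures were above all inverse controls. The highest value was in replicate 2 at 24 h, mostly from keratins, and the next at that time (6.90) was in replicate 3. Replicate 3 had the most Fn1 and Spp1 of that group (7278 and 1357 FPKM), above replicate 2 (5114 and 686 FPKM). At 72 h replicate 3 had the highest sum (8.17), the most Fn1 (10101 FPKM) and the least Spp1 (677 FPKM) of its group. Of the 12 genes 1 passed the filter on low values, Krt19, and it was called higher at 72 h (0.097 ± 0.090 to 2.04 ± 0.99 FPKM, difference 2.03, adjusted p = 0.0189) and not at 24 h (0.29 ± 0.090 to 5.26 ± 5.52 FPKM, difference 2.45, adjusted p = 0.0694). Krt19 passed that filter through the co-cultures, since no epithelial marker was above 1 FPKM in an inverse control. The direction of its call was thus fixed by the filter. Epcam, Grhl2 and Esrp1 were at or near 0 (group means of at most 0.041 FPKM). Krt19 also stands in the list of 7 mesothelial markers, of which 2 were tested in the inverse model. The other, Wt1, was not called (difference 0.49, adjusted p = 0.0938 at 24 h, and 0.09, adjusted p = 0.739 at 72 h). Summed mesothelial markers were 33.0 to 42.1 FPKM in inverse co-culture against 20.5 to 24.9 FPKM in controls at 24 h, and 28.8 to 36.5 FPKM against 24.2 to 34.2 FPKM at 72 h, with most of each sum from Wt1. Whether epithelial or mesothelial RNA contributed to the members' values was not tested.

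The other 8 members were tested in the co-culture comparisons with limma on log2(FPKM + 0.5), with p-values adjusted over all genes that passed the filter on low values. Standard co-culture gave no call among the 8 at 24 h or at 72 h, in comparisons where 0% of 12859 and 0% of 12863 genes were called. At an unadjusted p under 0.05 there were 371 and 800 genes, 1 of them a member at each time (Spon2), and voom on recovered fragments called no gene in either comparison. These fits do not pair libraries. With same-numbered libraries as a block, 157 genes were called at 24 h, Spon2 and Sparcl1 among them. At 72 h that fit called 1 gene and none of the 8. In inverse co-culture at 24 h, 1 of 8 was called higher (Sparcl1), against 1.08% of 12827 genes called higher, and none lower, with 2.47% called in either direction. At 72 h, 3 of 8 were called higher (Spon2, Tnc and Sparcl1), against a background of 3.27% of 13066 genes called higher, and 1 was called lower (Smoc1), against 9.57% called lower (12.8% in either direction). Over all genes tested the median log2 difference was −0.16 in that comparison, a shift that scaling by median ratios removes, and the 4 calls held under that scaling.

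**Figure D3:**
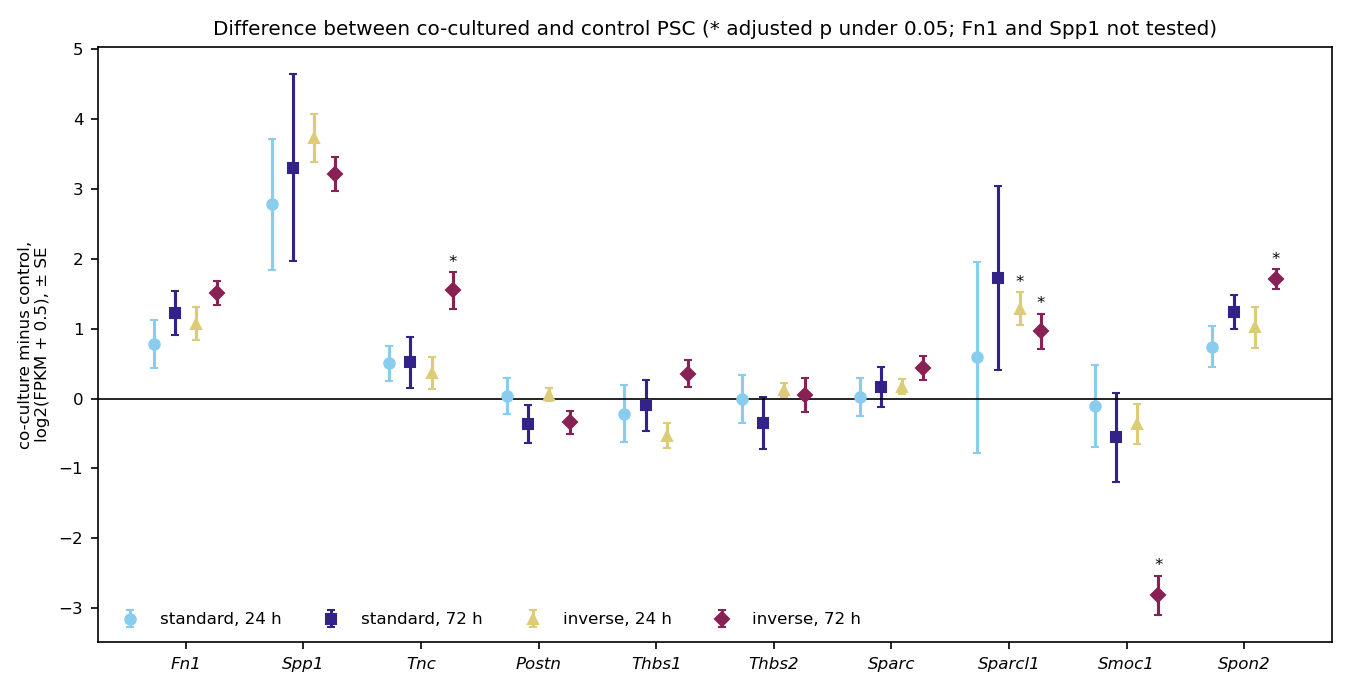
Co-culture minus control in log2(FPKM + 0.5) for the 10 members in each model and at each time; error bars are standard errors from limma (3 libraries against 3) and asterisks mark an adjusted p under 0.05. Fn1, Spp1, Spon2, Tnc, Sparcl1 and Sparc were above 0 in all 4 comparisons, Postn, Thbs2 and Sparc stayed within 0.5 of 0, and Smoc1 at 72 h in the inverse model was the one called decrease.

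Spon2 encodes spondin 2, a secreted protein of the F-spondin family that binds integrins and bacterial lipopolysaccharide. It was at 222, 185 and 273 FPKM in inverse co-culture at 72 h (replicates 1 to 3) and at 67.7, 67.9 and 68.9 FPKM in the controls. It was 1.71 higher on the log2 scale (SE 0.14, adjusted p = 0.00269), and stayed called in all 15 alternatives. At 24 h the inverse co-cultures had 111, 109 and 257 FPKM and the controls 67.1, 76.5 and 72.0 FPKM. These groups did not overlap, but replicate 3 was far above replicates 1 and 2, and the difference of 1.02 (SE 0.29) did not pass (adjusted p = 0.122). Without that library the difference was 0.61 and passed (adjusted p = 0.0142), as it did with voom (adjusted p = 0.0486). Standard co-cultures had Spon2 at 71.2, 129 and 101 FPKM and their controls at 44.3, 80.3 and 54.9 FPKM at 24 h. At 72 h the values were 194, 186 and 123 FPKM against 56.9, 90.8 and 65.2 FPKM. The groups overlapped at 24 h and were separate at 72 h, and co-culture was higher in 3 of 3 same-numbered pairs at each time. The differences were 0.74 (SE 0.30, adjusted p = 1) and 1.24 (SE 0.25, adjusted p = 0.702). The study's own comparison, made with DESeq2, listed Spon2 as differentially expressed at 72 h in both models. When same-numbered libraries were treated as a block, the 24 h difference passed (adjusted p = 0.020), in a fit that called 157 genes, and the 72 h difference did not (adjusted p = 0.217).

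Tnc encodes tenascin C, an anti-adhesive glycoprotein of tumor stroma and healing wounds. At 72 h in the inverse model it was at 60.5, 51.3 and 102 FPKM in co-culture and 19.4, 29.2 and 21.4 FPKM in control PSC. All co-cultured libraries were above all controls, and Tnc was 1.55 higher on the log2 scale (SE 0.26, adjusted p = 0.0122). Without control replicate 1 the adjusted p was 0.0502 and without control replicate 3 it was 0.0595. At 24 h the inverse groups overlapped, with 39.4, 52.6 and 73.8 FPKM in co-culture and 50.9, 40.6 and 34.3 FPKM in control PSC (difference 0.37, SE 0.23, adjusted p = 0.520). Standard PSC held Tnc at 86.6, 69.0 and 58.1 FPKM in co-culture and at 68.6, 43.3 and 40.7 FPKM in control PSC at 24 h. At 72 h it was at 54.4, 77.9 and 50.1 FPKM and 72.4, 28.8 and 34.0 FPKM. Replicate 1 of the controls was as high as the co-cultures, and the differences of 0.50 and 0.52 did not pass (adjusted p = 1 and 0.825). Paired by number, co-culture was higher in 3 of 3 pairs at 24 h and in 2 of 3 at 72 h. In the fit blocked on replicate number neither difference passed (adjusted p = 0.0617 at 24 h and 0.607 at 72 h).

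Sparcl1 encodes the Sparc-like protein hevin, a matricellular protein of vessels and brain. Inverse PSC had 112, 86.0 and 120 FPKM in co-culture and 49.2, 54.6 and 28.9 FPKM in control PSC at 24 h, and 175, 190 and 98.8 FPKM and 93.5, 66.3 and 70.8 FPKM at 72 h. The groups were separate at each time, and Sparcl1 was 1.29 higher at 24 h (SE 0.23, adjusted p = 0.0270) and 0.96 higher at 72 h (SE 0.25, adjusted p = 0.0448). These calls lie close to the threshold: of 15 alternatives each, 7 kept the call at 24 h and 6 at 72 h, with adjusted p from 0.00379 to 0.854 and from 0.00557 to 0.620. At 24 h the call ended without control replicate 1 (adjusted p = 0.0738), 2 (0.0539) or 3 (0.0527) or co-culture replicate 2 (0.0574). At 72 h it ended without co-culture replicate 1 (0.144) or 2 (0.0864) or control replicate 1 (0.0755), 2 (0.115) or 3 (0.145). Standard PSC had 10.9, 164 and 94.2 FPKM in co-culture and 6.53, 121 and 60.0 FPKM in control PSC at 24 h, and 92.7, 194 and 174 FPKM and 4.13, 161 and 116 FPKM at 72 h. Replicate 1 was far below the others except in co-culture at 72 h, and it set the error of the differences, 0.59 (SE 1.37) and 1.73 (SE 1.31). Without replicate 1 of both groups the differences were 0.54 and 0.43. Within numbers co-culture was higher in 3 of 3 pairs at each time, and in the fit blocked on replicate number the 24 h difference passed (adjusted p = 0.0356).

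Smoc1 encodes a calcium-binding basement membrane protein of the Sparc family that modulates BMP signalling. Inverse co-cultures at 72 h had it at 0.83, 1.34 and 0.72 FPKM (57, 80 and 46 fragments), with 13.4, 6.94 and 9.59 FPKM in control PSC (1062, 420 and 788 fragments). No library of one group came near the other, and Smoc1 was 2.82 lower in co-culture on the log2 scale (difference −2.82, SE 0.28, adjusted p = 0.00385), a ratio of means of 0.0963. It was called in all 15 alternatives. Smoc1 passed the filter on low values through the controls, since only 1 of the co-cultured libraries was above 1 FPKM, and it was also called with no filter. At 24 h the inverse groups overlapped, with 1.69, 1.51 and 1.14 FPKM in co-culture and 2.32, 1.31 and 2.54 FPKM in control PSC (difference −0.37, SE 0.29, adjusted p = 0.630). Standard PSC held Smoc1 between 1.07 and 3.88 FPKM in co-culture and between 0.87 and 5.81 FPKM in control PSC, and the differences of −0.11 and −0.55 did not pass (adjusted p = 1 and 0.919).

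The 4 remaining members were not called in any co-culture comparison. Sparc, a collagen-binding glycoprotein, ran from 5861 to 8537 FPKM over all libraries. In the inverse model at 72 h it was at 8534, 8370 and 8011 FPKM in co-culture and 6066, 6467 and 5861 FPKM in control PSC, so the groups were separate, and the difference of 0.44 (SE 0.18) did not pass (adjusted p = 0.131), while voom called it (adjusted p = 0.0415). Thbs1, an activator of latent TGF-β that is itself induced by TGF-β and serum, ran from 1382 to 4305 FPKM. Its inverse differences were −0.53 at 24 h (SE 0.18, adjusted p = 0.20) and 0.36 at 72 h (SE 0.19, adjusted p = 0.233), and the highest values were in replicate 1 of the standard controls (4305 and 4158 FPKM). Without co-culture replicate 3 the 24 h difference of Thbs1 was −0.73 and passed (adjusted p = 0.0193). Thbs2 ran from 105 to 344 FPKM, with differences between −0.35 and 0.12. Postn, a TGF-β-induced protein of fibrotic stroma, ran from 628 to 1400 FPKM, and its differences at 72 h were −0.36 (SE 0.27, adjusted p = 0.837) in the standard and −0.34 (SE 0.16, adjusted p = 0.186) in the inverse model. Without co-culture replicate 3 the latter was −0.49 and passed (adjusted p = 0.0438).

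Control PSC were compared between 72 h and 24 h to see how the members moved without KPC cells, with all 10 members tested. In the standard model none was called, where 0% of 12963 genes were called; no member and 127 genes were at an unadjusted p under 0.05, and voom called none. Among inverse controls 2 of 10 were called higher at 72 h, against 10.2% of 13092 genes, and 1 was called lower, against 9.05% (19.2% in either direction). Smoc1 was higher by 2.02 (SE 0.28, adjusted p = 0.00286), from 2.06 ± 0.65 to 9.96 ± 3.22 FPKM (SD, n = 3). Sparcl1 was higher by 0.83 (SE 0.23, adjusted p = 0.0373), from 44.2 ± 13.5 to 76.9 ± 14.6 FPKM. Tnc fell by 0.84 (difference −0.84, SE 0.18, adjusted p = 0.0154), from 41.9 ± 8.35 to 23.3 ± 5.20 FPKM. The Smoc1 call held whichever library was left out. The Tnc call ended without 24 h replicate 1 (adjusted p = 0.0505) or 2 (0.0526). The Sparcl1 call ended without 24 h replicate 1 (0.0585) or 3 (0.0559) or 72 h replicate 1 (0.106) or 3 (0.0672), and without 72 h replicate 2 Thbs1 was also called, lower by 0.56 (difference −0.56, adjusted p = 0.0460). In the same period Fn1 went from 2542 ± 566 to 3286 ± 315 FPKM (0.39, SE 0.17, adjusted p = 0.145) and Spp1 from 67.3 ± 26.1 to 104 ± 26.0 FPKM (0.68, SE 0.30, adjusted p = 0.141), and Spon2 from 71.9 ± 4.72 to 68.1 ± 0.63 FPKM (−0.07, SE 0.09, adjusted p = 0.576).

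These control values bear on the co-culture comparison at 72 h, which uses the same 3 control libraries. Inverse co-cultures had Smoc1 at 1.44 ± 0.28 FPKM after 24 h and 0.96 ± 0.33 after 72 h. These means were below that of the 24 h controls (2.06 ± 0.65 FPKM), and the 72 h controls stood above all other groups. Tnc was at 55.3 ± 17.3 and 71.2 ± 26.9 FPKM in inverse co-culture, while the controls were lower at 72 h than at 24 h. Spon2 was near the same level in the inverse controls, between 67.1 and 76.5 FPKM, and ran from 44.3 to 90.8 FPKM in the standard controls. Its values in the co-cultures of both models ran from 71.2 to 273 FPKM. The summed macrophage markers of the inverse controls were also higher at 72 h (139 to 277 FPKM) than at 24 h (81.9 to 91.6 FPKM), and their part in the control differences was not tested.

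**Figure D4:**
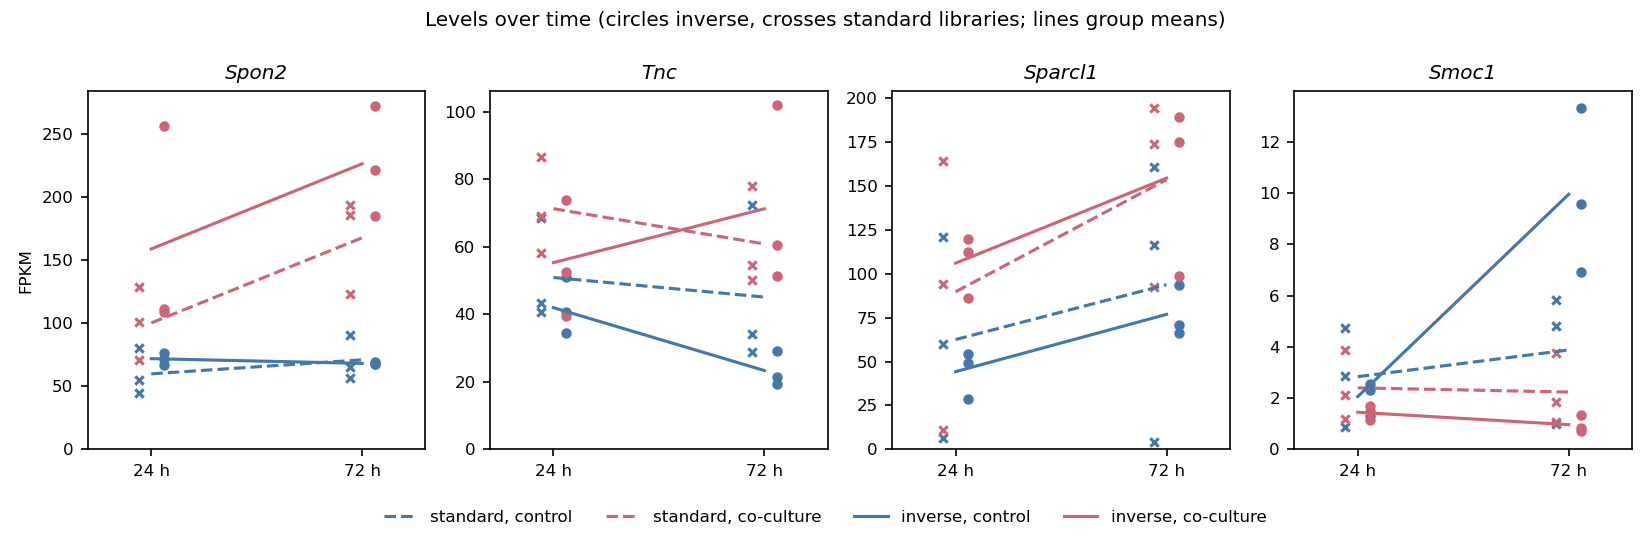
Levels of Spon2, Tnc, Sparcl1 and Smoc1 in FPKM (linear axes from 0) at 24 h and 72 h; circles are inverse and crosses standard libraries, and lines join the group means. In the inverse model the Smoc1 controls go from 2.06 to 9.96 FPKM and the co-cultures from 1.44 to 0.96 FPKM. The Tnc lines of the inverse model part in both directions, and the inverse Spon2 controls stay near 70 FPKM.

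Between models, control PSC did not show a called difference in any of the 10 members at 24 h or 72 h, where 0% of 12903 and 0% of 13106 genes were called. At an unadjusted p under 0.05 there were 225 and 810 genes, of which no member at 24 h and 1 at 72 h (Smoc1, 9.96 against 3.88 FPKM, difference 1.46, SE 0.57, adjusted p = 0.80), and voom called none. The differences of Postn, Spon2 and Thbs2 were at most 0.30 on the log2 scale with standard errors of 0.18 to 0.31, while those of Spp1 and Sparcl1 had standard errors of 0.86 to 1.28.

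Whether the co-culture difference itself differed between models or times was tested for the 8 members. None was called between models at 24 h or 72 h (0% of 14452 genes each), nor between times in the standard (0% of 13694) or inverse model (0% of 13722), and voom called no member. At an unadjusted p under 0.05 there were 182 and 501 genes between models at 24 h and 72 h, with 0 and 2 members (Tnc and Smoc1), and 141 and 1471 genes between times in the standard and inverse model, with 0 and 3 members (Tnc, Thbs1 and Smoc1). Smoc1 came closest, with a difference between models at 72 h of −2.27 (SE 0.75, adjusted p = 0.997) and between times in the inverse model of −2.45 (SE 0.40, adjusted p = 0.0643). The latter passed without co-culture replicate 2 (adjusted p = 0.0482) or control replicate 2 (0.0298) of 72 h or co-culture replicate 3 of 24 h (0.0358), and in the last case Spon2 passed too (1.09, adjusted p = 0.0358). Tnc differed by 1.03 between models at 72 h (SE 0.46, adjusted p = 0.997) and by 1.18 between times in the inverse model (SE 0.39, adjusted p = 0.340). For Thbs1 the value between times in the inverse model was 0.89 (SE 0.28, adjusted p = 0.317). When same-numbered libraries were treated as a block, Smoc1 passed between models at 72 h (difference −2.27, adjusted p = 0.0402), in a fit that called 16 genes and in which the inverse numbers are not shown to pair samples. For Fn1 the co-culture difference was 0.29 (SE 0.40) larger in the inverse model at 24 h and 0.28 (SE 0.40) larger at 72 h, each less than its error. For Spp1 these values were 0.95 (SE 1.39) and −0.10 (SE 1.39), the latter 1.3 without standard control replicate 1 and −1.43 without standard control replicate 2.

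Related genes were described from 3 lists, each set out by function. In the inverse model at 24 h, 1 of 26 tested other matricellular and matrix glycoproteins was called higher and 2 lower, 1 of 16 tested receptors of the members higher and 2 lower, and 2 of 13 tested enzymes that crosslink, modify or cleave them higher and 1 lower (2.47% of all genes). The list medians were 0.01, 0.04 and 0.02, against −0.06 over all genes. The called genes with the largest increases were Mmp3, a stromelysin that cleaves fibronectin and osteopontin (12.7 ± 4.84 to 72.7 ± 12.4 FPKM, difference 2.54, adjusted p = 0.00520), Plat, tissue plasminogen activator (1.11, adjusted p = 0.00462), Fbln1, fibulin 1, which binds fibronectin (1.10, adjusted p = 0.0159), and Sdc4, the fibronectin co-receptor syndecan 4 (0.65, adjusted p = 0.0431). The largest decreases were in Itga8, an integrin chain whose ligands include fibronectin, tenascin C and osteopontin (7.24 ± 0.98 to 1.54 ± 0.30 FPKM, −1.93, adjusted p = 0.00514), Ptprz1, a phosphatase that binds tenascin C (−1.43, adjusted p = 0.00755), Ccn5 (−1.13, adjusted p = 0.0186) and Tgm2, a transglutaminase that crosslinks fibronectin and osteopontin (−0.72, adjusted p = 0.0164).

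At 72 h in the inverse model, 2 of 26 other glycoproteins were called higher and 6 lower, 2 of 16 receptors higher and 2 lower, and 2 of 13 enzymes higher and 2 lower (12.8% of all genes in either direction). The list medians were −0.21, 0.10 and −0.07, against −0.16 over all genes. Mmp3 (1.51, adjusted p = 0.0441), Sdc4 (128 ± 18.5 to 335 ± 46.6 FPKM, 1.39, adjusted p = 0.00390), Plat (0.93, adjusted p = 0.00843) and Cd44, the osteopontin receptor (0.68, adjusted p = 0.0349), had the largest increases. Cd36, a thrombospondin receptor (93.8 ± 39.2 to 9.37 ± 5.19 FPKM, −3.31, adjusted p = 0.00774), Vtn, vitronectin (−2.22, adjusted p = 0.0102), Spon1, the relative of Spon2 (−1.54, adjusted p = 0.0185), and Tgfbi (−1.45, adjusted p = 0.0296) had the largest decreases. Spon1 thus fell where Spon2 rose. Macrophages also express Cd36, and the macrophage markers fell in this comparison; their part was not tested. In the standard model none of the 26, 16 and 14 genes tested at 24 h, or of the 26, 16 and 13 at 72 h, was called.

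**Figure D5:**
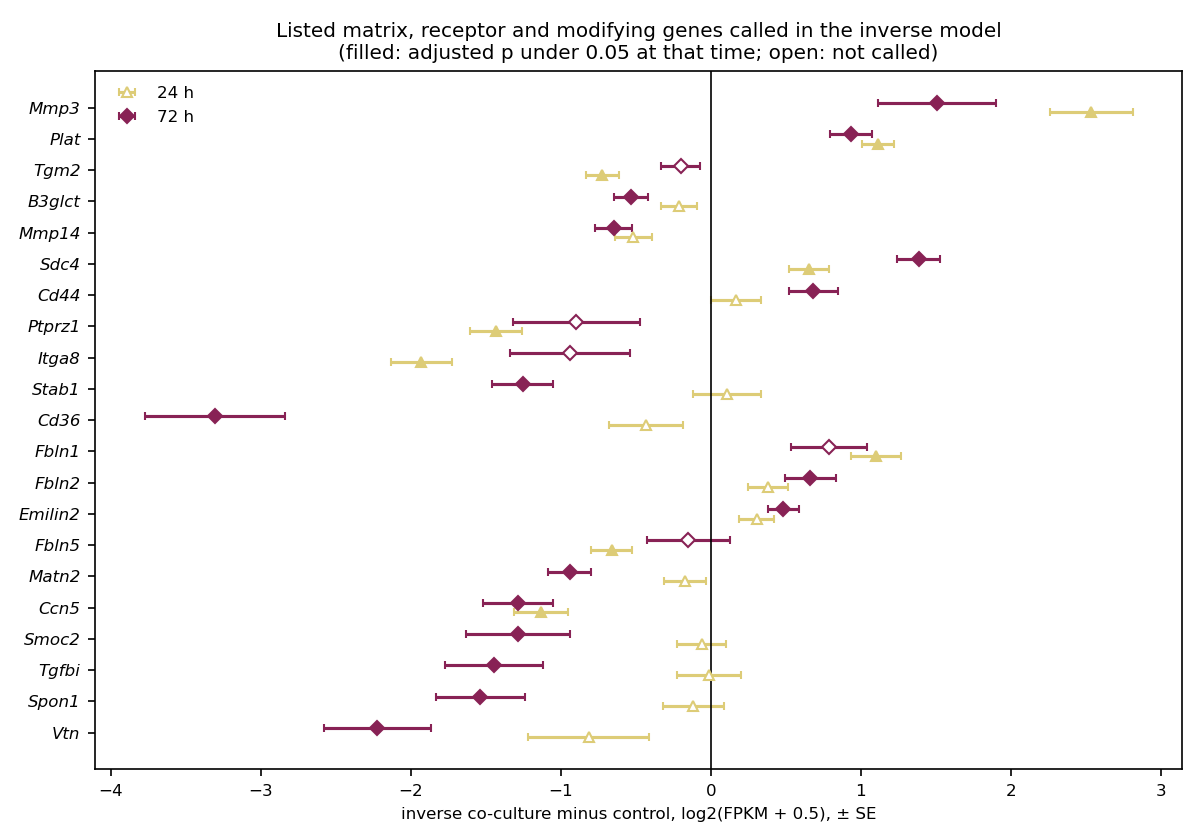
Inverse co-culture minus control in log2(FPKM + 0.5) at 24 h and 72 h for each gene of the 3 lists called at either time; error bars are standard errors (3 libraries against 3), filled symbols an adjusted p under 0.05 at that time, open symbols not called. Mmp3, Plat and Sdc4 were called higher and Ccn5 lower at each time, and Cd36 reached −3.31 at 72 h.

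The genes whose 8 group means, centred per gene, lay nearest to those of Fn1 among 14452 genes were Dchs1, Ccdc85a and Rnf165, with mean absolute log2 differences of 0.11, 0.12 and 0.12. For Spp1 they were 6030408B16Rik (0.37), Chrdl2 (0.54) and Mmp3 (0.56). With 1 in place of 0.5 added to the FPKM, the nearest genes to Fn1 were Enpp1, Gm8113 and Rab15, so the order among its neighbours was not firm, while 6030408B16Rik and Mmp3 were among the nearest to Spp1 again.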

How the data were processed

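RNA of 24 PSC libraries was measured by poly-A RNA-seq. Per the labels and the study's methods, the authors aligned reads to GRCm38 with HISAT2 2.0.5, counted them per gene with featureCounts 1.5.0-p3 and converted them to FPKM (DESeq2 1.20.0 served their own comparisons, not used here). The deposited unit is FPKM, normalized by the authors for library total and gene length, for 53801 genes.

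Low FPKM values behaved as whole fragments, and 28184 genes (97.5% of those above 0) gave whole fragments within 0.02 when a gene length was allowed for, at the mean length of the GENCODE M21 transcripts for 27228 genes (94.2%) and at another length for 956. These fragments summed to 99.8% to 99.9% of each library. Counting without a strand setting was assumed.

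The members and lists were chosen with earlier results of these data known. Symbols came from GENCODE M21 (53706 IDs matched). Genes above 1 FPKM in at least 3 of the libraries compared were tested with limma 3.58.1 (R 4.3.3) on log2(FPKM + 0.5) with an intensity trend, Benjamini-Hochberg adjustment over all genes tested and a threshold of 0.05. Two-group comparisons used the 6 libraries concerned, differences between models all 24, and differences between times the 12 of a model. Fn1 and Spp1 were left untested wherever co-culture was compared. Named genes were all members, up to 4 called genes with the largest and up to 4 with the most negative difference from the 3 related lists, and the 3 genes nearest to Fn1 and Spp1. The fit was tested on simulated data. Python 3 scripts with pandas 2.3.3 and matplotlib 3.10.9 prepared the tables and plots.

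Alternatives were another pseudocount (1 or 0.1), no filter or a mean above 5 FPKM, median-ratio scaling, no intensity trend, all libraries in 1 model, the replicate number as a block, voom on the recovered fragments and leaving out each library. Leaving out replicate 1 or 2 of both standard groups, and levels per longest transcript, were added after seeing the data. Same-numbered libraries of the standard model deviated together from their group means over genes (correlations 0.48 to 0.82 between co-culture and control), so these numbers pair the samples; those of the inverse model did not (−0.17 to 0.10).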

Additional observations from a re-analysis of the deposited data

How the results depend on the processing

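In standard co-culture at 24 h no member was called, and 2 were with the replicate block (Spon2 and Sparcl1). In inverse co-culture at 24 h, where 1 member was called, 0 were with no filter, with no intensity trend, with all 24 libraries in one model and with the replicate block, 2 were with voom on recovered fragments, and 0 to 3 were with a library left out. In inverse co-culture at 72 h the count of 4 became 2 to 5 with a library left out. Among inverse controls over time the count of 3 became 1 with no filter, 0 with all 24 libraries in one model and 1 to 4 with a library left out. The difference between models at 72 h gave 0 and with the replicate block 1 (Smoc1, adjusted p = 0.0402), a fit in which only the standard numbers pair. The difference between times in the inverse model gave 0, and 0 to 2 with a library left out. The cause of these changes was not tested.

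Of 2071 member values recomputed, 2023 kept their side of the threshold or stayed within the spread between replicates, 31 lost a call, 14 gained one and 3 untested Spp1 values moved. No called value changed sign. In the inverse model, whose numbers are not shown to pair samples (not every library correlated best with its own number), the replicate block ended the Sparcl1 calls (adjusted p = 0.0794 at 24 h and 0.0503 at 72 h), and beyond the members named here it changed no other call of a member. Over all genes the replicate block called 157 in place of 0 in standard co-culture at 24 h, 1 in place of 0 at 72 h, 88 in place of 317 in inverse co-culture at 24 h, 902 in place of 1678 at 72 h and 16 in place of 0 for the difference between models at 72 h. The 317 became 50 with no filter, 98 with no intensity trend, 12 with all 24 libraries in one model, 525 with voom and as few as 67 with a library left out (inverse control replicate 3). The 1678 became 888 with no filter, 940 with all 24 libraries and as few as 368 with a library left out (inverse control replicate 3). Among inverse controls over time 2516 genes became 1425 with no filter, 236 with all 24 libraries and as few as 1243 without 24 h replicate 2. In comparisons with 0 genes called, all 24 libraries gave 5 for standard co-culture after 24 h and 45 after 72 h, leaving out standard control replicate 1 gave 58 between controls at 24 h, and leaving out a library gave up to 75 for the difference between times in the inverse model, with 14 by voom. The other counts that left 0 were between 1 and 8. Smoc1, the least expressed member, rests on as few as 46 fragments per library, and 3 libraries a group limit what differences between models can show.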
